A study of Mus musculus with 6 samples.

Results

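The 37 genes described here encode the machinery that starts, builds and fuses autophagosomes. They were chosen by name from autophagy biology, and all 37 were found among the 55536 genes of the table and passed the filter on low values. By step they comprise 5 genes of initiation, 10 of the class III phosphatidylinositol 3-kinase (PI3K) complexes and their lipid effectors, 10 of ubiquitin-like conjugation and 12 of fusion with the lysosome. Their RNA was measured in 6 liver samples from C57BL/6 mice aged 8 to 10 weeks with floxed VMP1 alleles. The mice were given AAV8, a liver-infecting virus, intravenously 2 weeks earlier. In 3 samples (WT, the controls) the virus was AAV8-TBG-null, and in 3 samples (H-VMP1 KO, here the labelled knockout) it was AAV8-TBG-cre, with Cre under the hepatocyte promoter TBG. Controls and labelled knockout thus share the floxed alleles and the AAV8-TBG virus type, while only the virus of the labelled knockout carried Cre. TBG acts in hepatocytes, so the gene is not targeted in other liver cells, and whole liver was sequenced.

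Autophagy encloses cytoplasm in a double membrane that fuses with the lysosome. The ULK kinase complex starts the process, and a PI3K complex then makes the lipid PI3P, which WIPI proteins read. A pair of ubiquitin-like conjugation reactions attaches ATG8 proteins (LC3 and GABARAP) to the growing membrane, and a SNARE complex with the HOPS tether and the GTPase RAB7 drives fusion. VMP1, a membrane protein of the endoplasmic reticulum, acts between initiation and closure by moving phospholipid across the membrane. The liver relies on autophagy for turnover of lipid droplets, organelles and protein, and the comparison asks how the RNAs of these steps differ when Vmp1 is targeted in hepatocytes.

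Vmp1 itself (ENSMUSG00000018171, GRCm38 chromosome 11, 86583865 to 86683836) read 70.7, 96.5 and 88.6 TPM among controls against 157, 136 and 137 TPM for the labelled knockout. The fitted log2 fold change was 0.75 ± 0.13 (SE, adjusted p = 3.8e-04, limma), and -0.16 after the median-of-ratios scaling described next (adjusted p = 0.25). It was therefore not called lower under its label, and 1 value per gene does not check a deletion of some exons. TPM is a transcript abundance corrected for length and scaled to the same total in every library, and it keeps no read number. Depth is thus unknown. The 22 major urinary protein genes held 11.6 to 21.2% of TPM in the controls and 0.341 to 0.545% in the labelled knockout, which leaves more of the fixed total to other genes. The median log2 fold change of all 12796 tested genes was 0.77 as deposited. Rescaling without the major urinary protein (Mup) genes left this median at 0.56. Rescaling without mitochondrial and the 20 most abundant genes left it at 0.65. Median-of-ratios scaling, which centres the typical gene on no change, moved fold changes by a median of -0.81, and quantile normalization by -0.79. Each direction below is therefore given with both the deposited and the median-of-ratios values. Beside these, 34 of 34 tested markers of macrophages, neutrophils, lymphocytes, endothelium, stellate cells and bile ducts (44 listed) were higher as deposited and 32 by median of ratios. Over all tested genes 74.5% and 36.2% were higher. The filter asked for 1 TPM in 3 or more libraries. A marker near 0 in the controls could thus pass only through the labelled knockout, which largely fixed its direction. The 4 B cell markers, for instance, summed to 0.89 to 1.17 TPM in the controls, and 2 were tested. The summed macrophage markers ranged from 94.2 to 154 TPM in the controls and from 1003 to 1320 TPM in the labelled knockout, and 0 of the 44 markers were at 0 in every library. Of 10 hepatocyte markers, all detected, 8 were lower and 0 higher as deposited and 10 lower by median of ratios, with sums of 55385 to 74602 TPM and 23302 to 26601 TPM (controls first). In whole liver a change in RNA per cell and a change in the number of cells of a type cannot be told apart, and the part of cell composition in the results below was not tested.

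As deposited, most machinery genes rose, and 4 fell: the initiating kinase genes Ulk1 and Ulk2, the conjugating enzyme gene Atg3 and the protease gene Atg4d. Of the 37, 27 were higher and 4 lower at adjusted p under 0.05 (limma on log2(TPM + 1), Benjamini-Hochberg over all tested genes), with 6 not called. That is 73% higher and 10.8% lower, near the background of 74.5% and 10.7% over all tested genes. The median log2 fold change of the members was 0.56. With median-of-ratios scaling 5 were higher and 22 lower, or 13.5% and 59.5%, where the background was 36.2% and 35.6%, and the median was -0.28. Quantile normalization gave 7 higher and 19 lower, with backgrounds of 35.3% and 35.4%. Of the 27 genes higher as deposited, 5 kept that call by median of ratios, 12 became lower and 10 were not called. The 5 were Atg4a, Atg4b, Snap29, Vps18 and Rab7, a share of 13.5% against 36.2% of all tested genes. All 4 lower genes stayed lower, as a scaling that lowers fold changes leaves little other outcome, and the 6 uncalled genes became lower. TPM ranges of the groups did not overlap in 32 members, with the labelled knockout above in 28 and below in 4, where 75.5% and 11.3% of all tested genes separated that way.

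**Figure D1:**
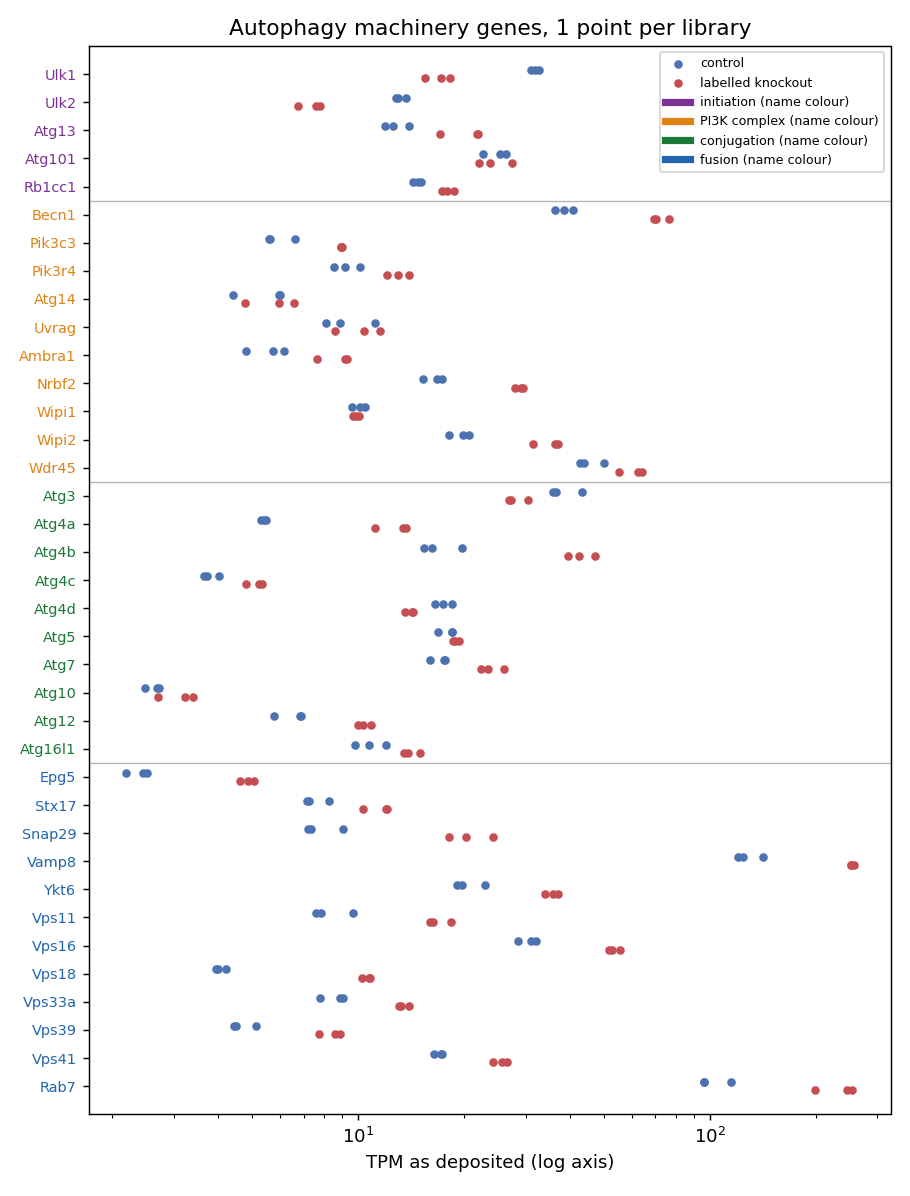
TPM as deposited (log axis) of the 37 genes in each of the 3 control and 3 labelled knockout libraries, 1 point per library, with gene names coloured by step. The labelled knockout points lie above the controls in 28 genes and below them in 4 (Ulk1, Ulk2, Atg3 and Atg4d). Of all tested genes, 75.5% and 11.3% separated that way. After median-of-ratios scaling they lie above in 6 and below in 26, beside 38.7% and 37.9% of all tested genes.

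**Figure D2:**
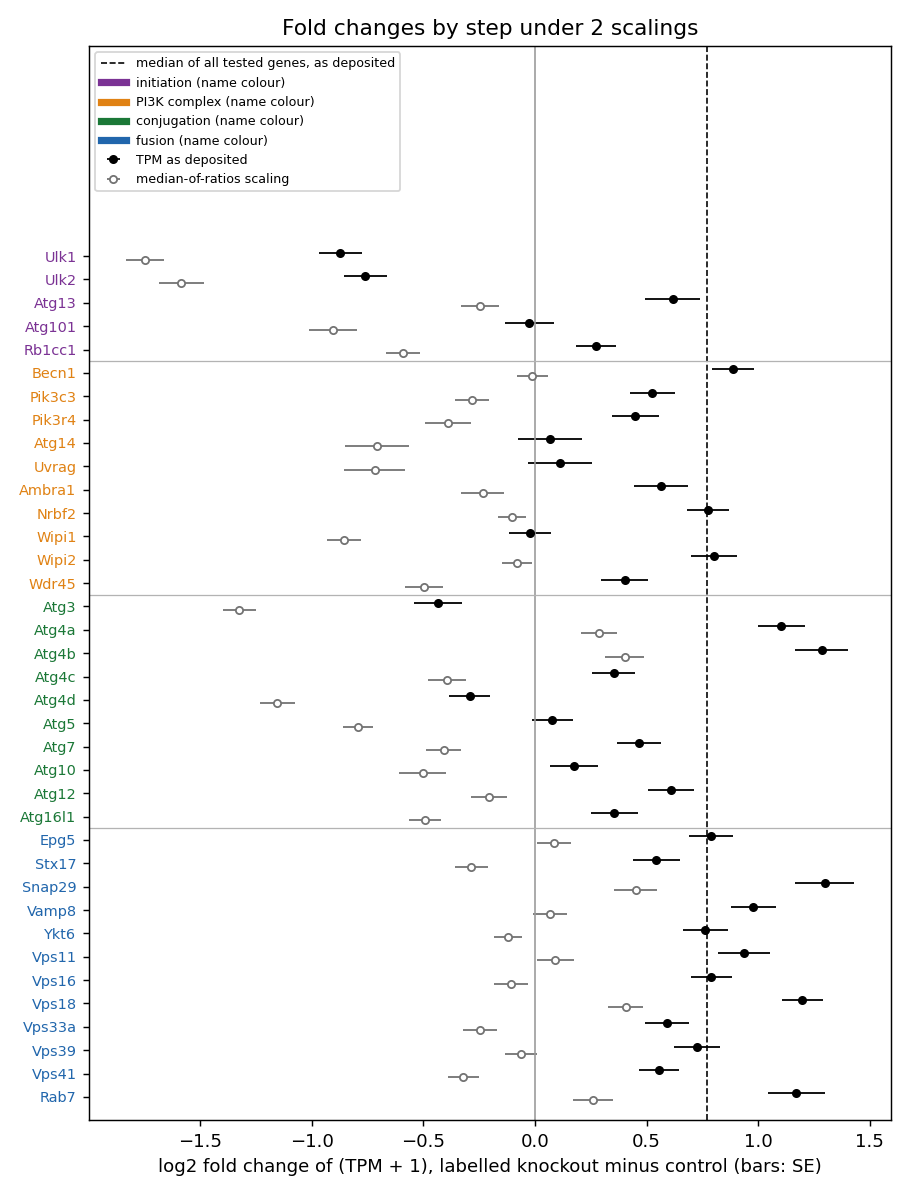
Log2 fold change of (TPM + 1) for each gene, labelled knockout minus control, with SE bars from limma, as deposited (filled) and by median of ratios (open); the dashed line is the median of all tested genes as deposited, 0.77. The 12 fusion genes scatter around that line, while all 5 initiation genes lie to its left.

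Promoter letters were searched on both strands for 4 short motifs of stress and lysosomal regulators. RefSeq windows (GRCm38.p6, from 250 bases before to 50 after a start) were matched for 29 members, in 32 windows. The E-box CACGTG, bound by the lysosomal regulators TFEB and TFE3 among others, was found in 7 of these 32 windows (21.9%) and in 7.15% of all 32851 windows. It occurred in Atg3, Atg5, Atg7, Atg14, Nrbf2, Vps16 and Vps33a, of which, as deposited, 1 fell, 4 rose and 2 were not called, while by median of ratios 5 were lower and Nrbf2 and Vps16 not called. The antioxidant response core TGACNNNGC was in 15.6% of the member windows (Atg13, Nrbf2, Rab7, Ulk2 and Vps16) and in 12.4% of all. The amino acid response core TGATGCAA was in 0 of 32 and 0.895% of all, and the forkhead element GTAAACA in 0 of 32 and 3.65% of all. The windows of all genes were not matched to the members for expression or base composition, and no difference in share was tested. A match describes letters and not binding. The stretches below, upstream of the start and written 5′ to 3′ on the gene's strand, show 2 genes that fell as deposited (Atg3 and Ulk2) beside 1 that rose as deposited and had a median-of-ratios value of -0.11 (Vps16), with matches in capitals. In Atg3 the capitals mark 2 E-boxes, in Ulk2 the antioxidant core, and in Vps16 a reverse-strand antioxidant core that runs into an E-box.
Atg3 (chr16:45158709-45158784, plus strand): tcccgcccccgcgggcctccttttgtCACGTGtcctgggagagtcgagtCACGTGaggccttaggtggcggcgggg
Ulk2 (chr11:61855093-61855212, minus strand): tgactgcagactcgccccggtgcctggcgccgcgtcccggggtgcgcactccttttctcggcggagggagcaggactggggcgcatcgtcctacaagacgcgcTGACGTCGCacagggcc
Vps16 (chr2:130424200-130424319, plus strand): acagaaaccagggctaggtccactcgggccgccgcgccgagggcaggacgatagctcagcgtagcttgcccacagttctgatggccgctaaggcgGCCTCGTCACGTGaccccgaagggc

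Both kinase genes of the initiation complex fell under all 5 scalings tried, and as deposited none of its other subunits was called lower. Every scaling other than the deposited one moved the typical fold change down. For genes lower as deposited this leaves little other outcome, so the repeats add little. Ulk1 (ENSMUSG00000029512, GRCm38 chromosome 5, 110784488 to 110810097), the main autophagy-starting kinase, read 32.6, 31.9 and 31.1 TPM among controls against 18.2, 17.3 and 15.5 TPM for the labelled knockout. Every control library lay above every labelled knockout library, by a wide margin. Its log2 fold change was -0.87 ± 0.10 (SE, adjusted p = 1.9e-05, limma), and -1.75 by median of ratios (adjusted p = 3.1e-06). Ulk2 (ENSMUSG00000004798, chromosome 11, 61775649 to 61855073), its paralog, read 12.8, 13 and 13.7 TPM among controls against 6.76, 7.78 and 7.59 TPM for the labelled knockout. The Ulk2 groups were equally separate, with a log2 fold change of -0.76 ± 0.10 (adjusted p = 5.2e-05), and -1.59 by median of ratios (adjusted p = 8.5e-06). These values placed Ulk1 at percentile 5.89 and Ulk2 at percentile 6.71 of the fold changes of all tested genes.

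The remaining initiation genes encode the partners that hold and position the kinase. Atg13 (ENSMUSG00000027244, chromosome 2, 91674618 to 91710576), the adaptor subunit, had the highest fold change of the step. It read 12.6, 13.9 and 11.9 TPM among controls against 21.9, 17.1 and 21.8 TPM for the labelled knockout, all of the latter higher. Its log2 fold change of 0.62 ± 0.12 (adjusted p = 9.3e-04) turned to -0.25 by median of ratios (adjusted p = 0.031). Rb1cc1, the scaffold FIP200, had a log2 fold change of 0.27 (adjusted p = 0.017) that turned to -0.59 by median of ratios. The deposited Rb1cc1 call disappeared on leaving out labelled knockout replicate 1 (adjusted p = 0.074). Atg101, the HORMA-domain partner of ATG13, was at 24.8 ± 1.93 TPM and 24.4 ± 2.71 TPM (mean ± SD, n = 3, controls first), with overlapping groups (adjusted p = 0.84, limma). With median-of-ratios scaling Atg101 was lower (-0.91). All 5 initiation genes were lower with that scaling, where 35.6% of all tested genes were, and 2 were higher and 2 lower as deposited, beside 74.5% and 10.7% of all.

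In the PI3K step the 3 core subunits rose as deposited, which none of them kept by median of ratios. Atg14 and Uvrag, whose products define the complexes, did not pass the deposited test, while the complex I subunit gene Nrbf2 did. BECN1, VPS34 (Pik3c3) and VPS15 (Pik3r4) form the core. ATG14 directs it to autophagosome formation (complex I) and UVRAG to endosomes and maturation (complex II). Becn1 (ENSMUSG00000035086, chromosome 11, 101285952 to 101302286) had the highest fold change of the step, reading 38.4, 40.9 and 36.2 TPM among controls against 69.3, 70.5 and 76.4 TPM for the labelled knockout. All 3 labelled knockout libraries lay above the controls, and the log2 fold change was 0.89 ± 0.09 (adjusted p = 1.4e-05). With median-of-ratios scaling the Becn1 value was -0.012 (adjusted p = 0.88), close to the median of all tested genes, and by quantile 0.22 (adjusted p = 0.02). Exons of Cntd1 on the opposite strand overlap 43.9% of the exonic bases of Becn1, and Cntd1 was at 0.063 and 0.053 TPM. Pik3c3 at 0.53 and Pik3r4 at 0.45 were higher as deposited and lower by median of ratios (-0.28 and -0.39).

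The complex-defining Atg14 read 4.41, 6 and 5.96 TPM among controls against 6.56, 5.94 and 4.77 TPM for the labelled knockout. Uvrag was at 8.08, 11.2 and 8.88 TPM against 10.4, 11.6 and 8.62 TPM. Both genes overlapped between groups as deposited (adjusted p = 0.67 and 0.47, limma) and were lower by median of ratios (-0.71 and -0.72). Nrbf2, a complex I subunit, had a log2 fold change of 0.78 (adjusted p = 3.3e-05) that became -0.10 by median of ratios and was not called. Ambra1, a BECN1 and ULK1 regulator, had 0.57 as deposited, called, and -0.24 after that scaling, not called (adjusted p = 0.058). Ambra1 and Atg13 are transcribed away from each other on chromosome 2, with 19557 bases between them. Other genes within that interval were not looked for.

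Among the PI3P effectors the paralogs WIPI1 and WIPI2 parted. Wipi1 (ENSMUSG00000041895, chromosome 11, 109573331 to 109611967) had the lowest fold change of the step, reading 10.5, 10.1 and 9.6 TPM among controls against 10.1, 9.85 and 9.69 TPM for the labelled knockout. The ranges overlapped, with a log2 fold change of -0.022 ± 0.09 (adjusted p = 0.83, limma). With median-of-ratios scaling Wipi1 was lower, at -0.86 (adjusted p = 4.1e-05). Wipi2, which recruits ATG16L1 to the membrane, went from 19.5 ± 1.34 to 34.9 ± 3.09 TPM (SD, n = 3), a log2 fold change of 0.80 as deposited and, not called, -0.082 on the other scaling. Wdr45 (WIPI4) was at 0.40 and turned to -0.50 with that scaling. In the whole step 7 of 10 genes were higher and 0 lower as deposited, near the 74.5% higher of all tested genes, and 0 were higher and 6 lower by median of ratios, where 36.2% and 35.6% of all were.

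The conjugation step held 2 of the 5 genes higher under both scalings and 2 of the 4 that fell. As deposited 6 of its 10 genes were higher and 2 lower, and 2 and 8 by median of ratios, beside 74.5% and 10.7%, and 36.2% and 35.6%, of all tested genes. ATG7, an E1-like enzyme, activates ATG12 and the ATG8 proteins, ATG10 and ATG3 are their E2-like carriers, and ATG12-ATG5 with ATG16L1 serves as the E3-like complex. Atg3 (ENSMUSG00000022663, chromosome 16, 45158785 to 45188538), whose promoter with 2 E-boxes is printed above, read 36.5, 43.4 and 35.7 TPM among controls against 30.5, 27.2 and 26.8 TPM for the labelled knockout. All 3 labelled knockout libraries lay below the controls. Its log2 fold change was -0.44 ± 0.11 (adjusted p = 0.0038), and -1.33 by median of ratios (adjusted p = 4.8e-06). The E1 gene Atg7 had a log2 fold change of 0.46, Atg12 of 0.61 and Atg16l1 of 0.36 as deposited, all called, and the 3 turned to -0.41, -0.21 and -0.49 by median of ratios. The Atg16l1 call as deposited disappeared on leaving out labelled knockout replicate 3 (adjusted p = 0.052). Atg5 at 17.9 ± 0.959 and 19 ± 0.349 TPM and Atg10 at 2.63 ± 0.129 and 3.1 ± 0.369 TPM (SD, n = 3, controls first) were not called as deposited (adjusted p = 0.45 and 0.15, limma). With median-of-ratios scaling both were lower (-0.79 and -0.50).

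The 4 ATG4 cysteine proteases prime ATG8 proteins and later release them from lipid, and their genes went in different directions. Atg4b (ENSMUSG00000026280, chromosome 1, 93751500 to 93790610), the most active family member on LC3, read 15.4, 19.7 and 16.2 TPM among controls against 42.5, 39.4 and 47.3 TPM for the labelled knockout. The lowest labelled knockout library was well above the highest control. Its log2 fold change was 1.29 ± 0.12 (adjusted p = 5.7e-06), and 0.40 by median of ratios (adjusted p = 0.004). Atg4a (ENSMUSG00000079418, chromosome X, 140956907 to 141164270), which prefers GABARAP-type substrates, read 5.29, 5.48 and 5.38 TPM among controls against 13.7, 11.2 and 13.4 TPM for the labelled knockout. That separation gave a log2 fold change of 1.10 ± 0.11 (adjusted p = 7.2e-06), and 0.29 by median of ratios (adjusted p = 0.014), where the call disappeared on leaving out control replicate 2 (adjusted p = 0.056). A retrogene copy, Atg4a-ps, was at most at 0.18 TPM in any library.

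Atg4d went the other way and Atg4c lay between. Atg4d (ENSMUSG00000002820, chromosome 9, 21265293 to 21277772) read 16.5, 18.5 and 17.4 TPM among controls against 13.6, 14.3 and 14.3 TPM for the labelled knockout, all of the latter lower. The log2 fold change was -0.29 ± 0.09 (adjusted p = 0.014), gone on leaving out labelled knockout replicate 1 (adjusted p = 0.056), and -1.15 by median of ratios (adjusted p = 1.0e-05). Exons of Kri1 on the opposite strand overlap 19.3% of the exonic bases of Atg4d, and Kri1 went from 6.17 to 17.7 TPM. The strand setting of the counting is not given in the sources used here, so reads of this stretch cannot be assigned with certainty. Atg4c was at 3.79 ± 0.208 and 5.12 ± 0.284 TPM (SD, n = 3), higher as deposited (0.35) and lower by median of ratios (-0.40). Within a library the scaling cancels: Atg4b held 37.7, 41.3 and 37.9% of the summed Atg4 TPM in the controls and 56.6, 56.1 and 59.2% in the labelled knockout. The Atg4d share went from 40.4, 38.7 and 40.8% to 18.2, 20.3 and 17.9%. Controls thus had nearly equal Atg4b and Atg4d, and the labelled knockout had mostly Atg4b.

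**Figure D3:**
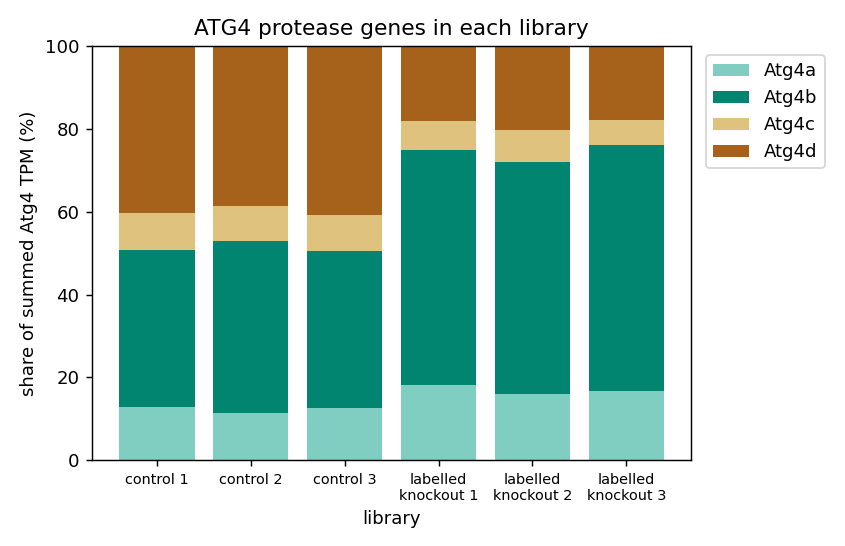
Share of the summed TPM of the 4 ATG4 protease genes held by each gene, in percent, as 1 stacked bar for each of the 3 control and 3 labelled knockout libraries. Atg4b holds 37.7 to 41.3% in the controls and 56.1 to 59.2% in the labelled knockout, and Atg4d 38.7 to 40.8% and 17.9 to 20.3%.

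Every fusion gene rose as deposited, and as a set they moved with the typical gene of the libraries. Of the 12, 12 were higher as deposited, where 74.5% of all tested genes were, with a median log2 fold change of 0.79 beside 0.77 for all tested genes. With median-of-ratios scaling 3 were higher, 3 lower and 6 not called, with a median of 0.001, beside 36.2% higher and 35.6% lower of all tested genes. Among the SNAREs, Snap29 (ENSMUSG00000022765, chromosome 16, 17405986 to 17430827), the adaptor between both membranes, had the highest fold change of all 37 genes. It read 7.22, 9.03 and 7.36 TPM among controls against 24.2, 18.1 and 20.3 TPM for the labelled knockout. The lowest labelled knockout library was about as far above the highest control as the whole control level. The log2 fold change was 1.30 ± 0.13 (adjusted p = 1.0e-05), and 0.45 by median of ratios (adjusted p = 0.0041).

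Its partner on the autophagosome, Stx17 (ENSMUSG00000061455, chromosome 4, 48124915 to 48186507), had the lowest fold change of the step. Stx17 read 7.14, 8.26 and 7.27 TPM among controls against 12.1, 10.4 and 12 TPM for the labelled knockout, without overlap. Its log2 fold change of 0.54 ± 0.11 (adjusted p = 8.9e-04) turned to -0.28 by median of ratios (adjusted p = 0.0089). The lysosomal SNARE gene Vamp8 was the most abundant member, at 129 ± 11.7 and 254 ± 2.84 TPM (SD, n = 3). Vamp8 had a log2 fold change of 0.98 as deposited, 0.066 (not called) by median of ratios, and 0.59 (adjusted p = 1.2e-04) with quantile normalization. Ykt6, a SNARE that can act in place of STX17, had 0.76, and -0.12 (not called) by median of ratios. Epg5, a tether for RAB7-positive membranes, was at 0.79 as deposited, 0.084 by median of ratios and -0.058 by quantile, the latter 2 not called.

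The HOPS tether joins 4 core subunits shared with the endosomal CORVET complex (VPS11, VPS16, VPS18 and VPS33A) to VPS39 and VPS41, and the core subunit gene Vps18 had the highest fold change of the 6. Vps18 (ENSMUSG00000034216, chromosome 2, 119288740 to 119298453) read 4, 4.22 and 3.95 TPM among controls against 10.2, 10.8 and 10.7 TPM for the labelled knockout. Replicates lay close together and the groups far apart. Its log2 fold change was 1.20 ± 0.09 (adjusted p = 1.9e-06), and 0.41 by median of ratios (adjusted p = 0.0024). The other 5 subunits had log2 fold changes from 0.56 (Vps41) to 0.94 (Vps11), all called as deposited. With median-of-ratios scaling Vps33a at -0.25 and Vps41 at -0.32 were lower and the other 3 were not called. Measured against the mean log2 TPM of the 6 subunits in the same library, Vps18 stood at -1.23, -1.25 and -1.17 in the controls and -0.75, -0.65 and -0.73 in the labelled knockout. On that scale Vps18 moved up by 0.50 and Vps41 down (-0.30), while Vps16 stayed the most abundant subunit at 1.69 ± 0.0304 and 1.62 ± 0.0898 (SD, n = 3).

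Rab7 (ENSMUSG00000079477, chromosome 6, 87999106 to 88045270), the late endosomal GTPase that recruits HOPS, was the second most abundant member. It read 96.5, 114.9 and 96.4 TPM among controls against 246, 199 and 254 TPM for the labelled knockout. All 3 labelled knockout libraries were above the controls, replicate 2 the least. The log2 fold change was 1.17 ± 0.13 (adjusted p = 1.6e-05), and 0.26 by median of ratios (adjusted p = 0.033). That median-of-ratios call disappeared on leaving out control replicate 1 (adjusted p = 0.11), 2 (0.055) or 3 (0.1), whereas Atg4b, Snap29 and Vps18 kept theirs without any single library. The pseudogene Rab7-ps1 ranged from 0.45 to 1.55 TPM.

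Shares of the members' own sum compare the steps without any scaling between libraries. Initiation genes held 13.7, 12.4 and 13.3% of the summed TPM of the 37 genes in the controls and 7.13, 7.6 and 7.01% in the labelled knockout. Within that sum Ulk1 went from a mean of 31.9 to 17 TPM and Ulk2 from 13.2 to 7.38 TPM. As deposited Atg13 and Rb1cc1 rose and Atg101 was not called, and the share without the kinase genes was not computed. Fusion genes held 45.3, 46.9 and 46.1% and then 57.5, 56.2 and 58%. Conjugation held 18.3 to 18.6% in the controls and 14.4 to 14.5% in the labelled knockout, and the PI3K step 22.1 to 22.7% and 20.5 to 21.8%. Vamp8 and Rab7 make up much of the fusion sum. Without these 2, left out after they were seen to dominate it, initiation held 18.3 to 19.5% among controls and 12 to 12.5% for the labelled knockout, and fusion 21.6 to 21.9% and 27.9 to 28.4%. The PI3K share then turned direction, with 32.1 to 32.5% among controls and 35 to 35.9% for the labelled knockout, and conjugation held 26.2 to 27.2% and 23.7 to 24.7%. As deposited the controls also differed among themselves: 28 of the 37 genes (75.7%) were highest in control replicate 2, as were 60.2% of all tested genes, and that library had the smallest share of major urinary protein genes.

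**Figure D4:**
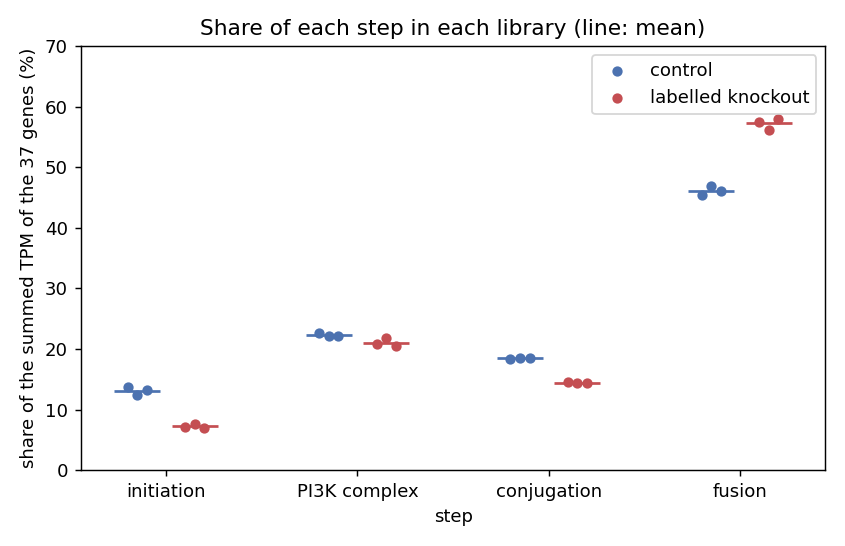
Share of the summed TPM of the 37 genes held by each step, in percent, with 1 point per library and a line at the group mean. Initiation holds 12.4 to 13.7% in the controls and 7.01 to 7.6% in the labelled knockout, and fusion 45.3 to 46.9% and 56.2 to 58%.

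Ratios between partners or paralogs were compared in 13 pairs, since a ratio within a library does not depend on how libraries are scaled. With 3 libraries a group the smallest two-sided exact permutation p is 0.1, and 0.13 after adjustment over the pairs, which the 10 pairs without overlap reached. How often other pairs of tested genes separate was not determined. Of single genes, 75.5% separated above and 11.3% below as deposited, and 38.7% and 37.9% by median of ratios. The lack of overlap alone therefore does not set these pairs apart. Atg4d/Atg4b was 1.07, 0.937 and 1.07 in the controls and 0.321, 0.362 and 0.302 in the labelled knockout, a log2 difference of -1.65. Wipi1/Wipi2 was 0.526, 0.487 and 0.531 and then 0.272, 0.314 and 0.267, a difference of -0.86. Both ratios were far outside the spread of the controls. Atg4c/Atg4b differed by -0.90.

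Ratios within the conjugation machinery also separated without overlap, again with no share known for other gene pairs. Atg12/Atg5, the 2 partners joined by conjugation, was 0.371, 0.371 and 0.341 in the controls and 0.563, 0.548 and 0.536 in the labelled knockout, a log2 difference of 0.61. Atg10/Atg3, the 2 E2-like enzymes, differed by 0.68. Smaller shifts separated Vamp8/Stx17 (0.38), Nrbf2/Pik3c3 (0.21), Ykt6/Stx17 (0.19) and Vps41/Vps39 (-0.26). Rab7/Vps18 (-0.21) separated narrowly, since its nearest control and labelled knockout libraries were at 24.1 and 24, and the difference was -0.081 without labelled knockout replicate 2 and -0.026 with 1 TPM added to both genes. The groups overlapped in 3 pairs: Ulk1/Ulk2 at 1.27 ± 0.0828 and 1.2 ± 0.204, Uvrag/Atg14 at 0.78 ± 0.179 and 0.83 ± 0.149, and Atg4a/Atg4b at -1.66 ± 0.162 and -1.76 ± 0.104 (log2 ratio, SD, n = 3, controls first; exact permutation p = 0.6, 0.7 and 0.4). These 3 spreads leave room for differences that 3 libraries cannot show.

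**Figure D5:**
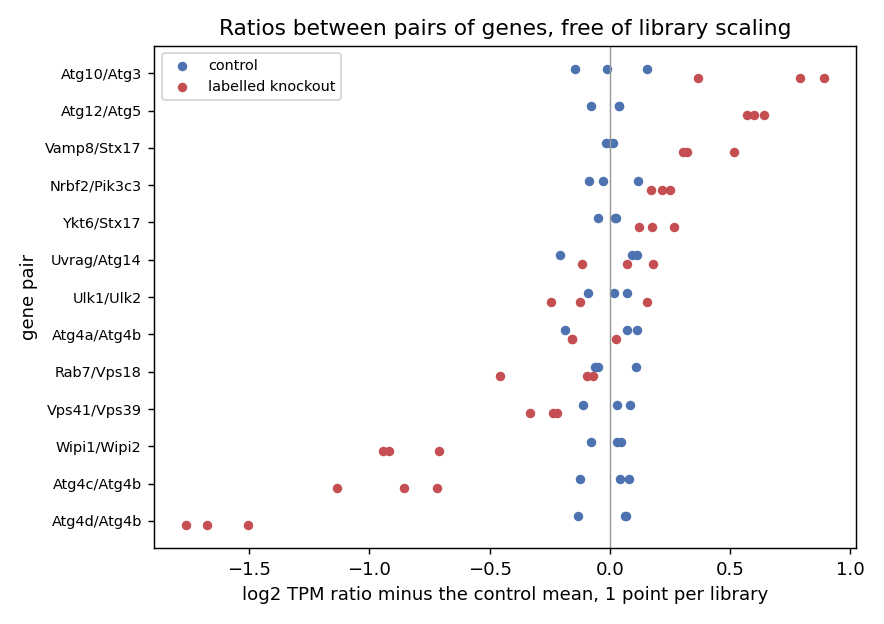
Log2 TPM ratio of 13 gene pairs in each library after subtracting the control mean of the pair, 1 point per library. How often other gene pairs separate was not determined. Atg4d/Atg4b, Atg4c/Atg4b and Wipi1/Wipi2 lie far to the left in the labelled knockout (-1.65, -0.90 and -0.86), Atg10/Atg3 and Atg12/Atg5 to the right (0.68 and 0.61), and Ulk1/Ulk2, Uvrag/Atg14 and Atg4a/Atg4b overlap.

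Other genes of the pathway, 48 listed and 47 tested, were 41 higher (87.2%) and 2 lower (4.26%) as deposited, beside 74.5% and 10.7% of all tested genes. By median of ratios 14 were higher (29.8%) and 19 lower (40.4%), beside 36.2% and 35.6%. Of the ATG9 and ATG2 lipid transfer genes 4 were tested, with 1 higher and 1 lower as deposited and 0 and 3 by median of ratios. Atg9a, the vesicle scramblase, fell from 17.9 ± 0.576 to 15 ± 0.0929 TPM (SD, n = 3), a log2 fold change of -0.24 (adjusted p = 0.028, limma), and -1.11 by median of ratios. Atg2a, a lipid bridge protein gene, was at 0.84 as deposited and -0.029, not called, on the other scaling. Among 6 AMPK subunits, which sense low energy and act on ULK1, 4 were higher and 1 lower as deposited, and 3 and 3 by median of ratios. Prkab1 was at 1.32 and then 0.45, called with both, and Prkag2 at -0.49 and then -1.32, also called with both.

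Among nutrient sensing and fusion genes the counts are again to be read against 74.5% of all tested genes higher as deposited, and 36.2% higher and 35.6% lower by median of ratios. Rragd, Rab7b and Bcl2 in the lists below, and Prkab2 of the AMPK list, were under 1 TPM in every control. They passed the filter only through the labelled knockout, which largely fixed their direction, and count as higher with both scalings. Of 15 genes of mTORC1 and its lysosomal docking, which restrains ULK1 when nutrients are plentiful, 14 were higher as deposited (93.3%) and 0 lower, and 6 (40%) and 5 (33.3%) by median of ratios. Lamtor1, which anchors the Ragulator complex to the lysosome, rose from 33.1 ± 3.38 to 96.5 ± 6.4 TPM (SD, n = 3), at 1.52 as deposited and 0.62 by median of ratios, called with both. Rptor was lowest of that list at 0.23 (adjusted p = 0.051, limma), and -0.54 by median of ratios. All 13 regulators of fusion and maturation were higher as deposited, with 3 higher (23.1%) and 5 lower (38.5%) by median of ratios. Rab7b, a RAB7 paralog found in antigen-presenting cells, went from 0.11, 0.17 and 0.29 TPM to 10.8, 8.55 and 9.37 TPM. In these libraries 10 of 10 macrophage markers rose with both scalings. Of all 34 tested markers of cells other than hepatocytes, 34 rose as deposited and 32 by median of ratios. Those near 0 in the controls could pass the filter only through the labelled knockout. The part of cell composition in the Rab7b values was not tested. Rubcn, an inhibitor of the UVRAG complex, was lowest of that list at 0.29 and turned to -0.48 by median of ratios. All 9 remaining PI3P and conjugation genes were higher as deposited, from Pik3c2a at 0.51, which turned to -0.32 by median of ratios, to the BECN1-binding survival gene Bcl2l1 at 2.24, which kept 1.36.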

How the data were processed

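Per the labels' protocols, total RNA of 6 liver samples was sequenced from standard Illumina libraries. The authors deposited 1 table in TPM, with 1 column per library. Per the submitters' processing notes, the genome build was mm10 and the tools, listed with no role, were edgeR, RSEM and STAR 2.6.1c. Whether reads were counted by strand is not given in the sources used here. TPM keeps no read totals, so depth and counting error are unknown and no count model was used.

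Genes that reached 1 TPM in 3 or more libraries were fitted as log2(TPM + 1) with limma 3.58.1 (intensity trend, robust variances) in R 4.3.3, unblocked, with adjustment over all 12796 genes at 0.05. Fold changes on this scale understate low genes. Columns matched the sample titles. Nothing in the labels says that each sample is another animal. The p-values then reflect only sample-to-sample spread, possibly technical. Ratios were tested with exact permutation. Positions come from GENCODE M21 on GRCm38 (mm10), promoters from RefSeq. Full values go to Vmp1, to the highest and lowest fold change of each step, and to members called alike with both scalings; other pathway lists name their highest and lowest gene. Gene lists, pairs, motifs and these rules were chosen with earlier results of these data known. Printed promoters were chosen after their values were seen. In simulated libraries of 10882 genes the fit found 85% of true changes sized 1 (log2) and 32% of those sized 0.5. There 4 calls were false. Only 100 genes were changed at each size, in random direction and with no shift shared by all genes. The real data differ in both respects, so these rates need not hold for them. Alternatives changed pseudocount, filter, scaling, variance model, block and libraries.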

Additional observations from a re-analysis of the deposited data

How the results depend on the processing

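The 2 scalings that centre the typical gene turned 23 (median of ratios) and 19 (quantile) of the 37 directions, and the 2 rescalings turned 4 (without Mup genes) and 3. With a pseudocount of 0.1, with no filter and without trend and robust variances, all 37 genes kept direction and call, as did the 34 left by a filter at 5 TPM. Median-of-ratios scaling changed the counts of higher and lower genes to 5 and 22, 0 and 5 for initiation, 0 and 6 for the PI3K step, 2 and 8 for conjugation and 3 and 3 for fusion. Quantile normalization gave 7 and 19, 0 and 4, 1 and 6, 2 and 7, and 4 and 2. Rescaling without the Mup genes gave 21 higher and 6 lower in all, with 1 higher for initiation, 1 lower for PI3K and 3 higher for conjugation, and rescaling without mitochondrial and the 20 most abundant genes gave 23 and 4, with 1 higher for initiation. Fusion had 12 of 12 higher in both rescalings. Without the Mup genes 56.8% of the members were higher and 16.2% lower, beside 65.7% and 14.7% of all tested genes. Without mitochondrial and the most abundant genes the shares were 62.2% and 10.8%, beside 68.2% and 13.5%.

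Reversed values (log2) with median-of-ratios scaling were Atg13 -0.25, Rb1cc1 -0.59, Becn1 -0.012, Pik3c3 -0.28, Pik3r4 -0.39, Atg14 -0.71, Uvrag -0.72, Ambra1 -0.24, Nrbf2 -0.10, Wipi2 -0.082, Wdr45 -0.50, Atg4c -0.40, Atg5 -0.79, Atg7 -0.41, Atg10 -0.50, Atg12 -0.21, Atg16l1 -0.49, Stx17 -0.28, Ykt6 -0.12, Vps16 -0.11, Vps33a -0.25, Vps39 -0.064 and Vps41 -0.32. With quantile normalization they were Atg13 -0.18, Rb1cc1 -0.51, Pik3c3 -0.26, Pik3r4 -0.34, Atg14 -0.75, Uvrag -0.67, Ambra1 -0.24, Wdr45 -0.26, Atg4c -0.48, Atg5 -0.71, Atg7 -0.31, Atg10 -0.67, Atg12 -0.18, Atg16l1 -0.44, Epg5 -0.058, Stx17 -0.25, Vps33a -0.19, Vps39 -0.081 and Vps41 -0.21. Without the Mup genes Atg14 was -0.16, Uvrag -0.13, Atg5 -0.17 and Atg10 -0.020, and without mitochondrial and the most abundant genes Atg14 was -0.10, Uvrag -0.067 and Atg5 -0.11.

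Leaving out 1 library gave 26 to 27 higher and 3 to 4 lower genes, 1 to 2 higher for initiation and 1 to 2 lower for conjugation. Genes higher with both scalings numbered 3 to 5, the lowest without control replicate 2, a check added after seeing the data. Uncalled values changed sign for Atg101 (-0.11 to 0.041), Atg14 (-0.056 to 0.18) and Wipi1 (-0.052 to 0.0040). All 91 recomputed pair differences stayed within 1 SD, although Rab7/Vps18 shrank from -0.21 to -0.081 without labelled knockout replicate 2 and to -0.026 with a pseudocount of 1. The combined SD of both groups for Rab7/Vps18 was 0.24, larger than its difference. Staying within 1 SD therefore says little for that pair.

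Replicate numbers did not pair the libraries (correlation of deviations 0.076, 0.04 and -0.12 for equal numbers). With the replicate block 1 call as deposited was lost, Rb1cc1 (0.27, adjusted p = 0.053), which left 1 higher gene in initiation. By median of ratios, a fit added after seeing the data, the block lost 3 calls, Rab7 (0.26, adjusted p = 0.063), Atg13 (-0.25, 0.055) and Atg12 (-0.21, 0.066), which left 4 genes higher under both scalings.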
